A study of Mus musculus with 8 samples.

Results

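The 10 genes described here encode enzymes that make, use or sense the lipid second messenger diacylglycerol in T cells: the phospholipases Plcg1, Plcg2, Pld1 and Pld2, the protein kinase C (PKC) genes Prkcq, Prkca, Prkcb and Prkch, the Ras exchange factor gene Rasgrp1 and the protein kinase D gene Prkd2. They were taken by name from a table of 45232 genes, and each name matched 1 row. The values come from bulk RNA sequencing of OT-I mouse CD8 T cells, which carry a transgenic receptor for the ovalbumin peptide SIINFEKL. All cells were activated with that peptide and cultured with IL-2 for 5 days. The tested medium was RPMI with 10% fetal bovine serum plus o-phosphoethanolamine (pEtn) at 470 µM, and the other was RPMI with 10% fetal bovine serum alone, with 4 numbered libraries of each. The comparison asks what added pEtn, a precursor of the phospholipid phosphatidylethanolamine, does to the transcripts of these cells.

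When the T cell receptor binds its ligand, phospholipase C gamma cleaves a membrane phosphoinositide into inositol trisphosphate, which releases calcium, and diacylglycerol, which stays in the membrane. Diacylglycerol recruits proteins with C1 domains, among them the PKC and PKD kinases and RasGRP1, which loads Ras with GTP and so starts the ERK cascade. Phospholipase D acts on phosphatidylcholine instead and gives phosphatidic acid, which phosphatases can turn into diacylglycerol.

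Total counts ran from 29223765 to 35504571 per library. Each level below is in CPM, counts relative to library size after TMM scaling, unless it is given in TPM, the deposited value that is corrected for gene length. The replicate numbers are shared by both media, and same-numbered libraries deviated together from their group means (correlation 0.441 to 0.566 over 11862 genes). Across numbers 3 and 4 it was nearly as high (pEtn 4 with RPMI 3, 0.406, and pEtn 3 with RPMI 4, 0.382). Numbers 3 and 4 are therefore not shown to be separate pairs. The correlation was 0.153 for pEtn 1 with RPMI 2, and -0.128 or lower for all other libraries of unlike number. Given the likeness of same-numbered libraries, the edgeR test was also run with the number as a block. The ratios and shares below were also tested as pairs. Replicates 3 and 4 resembled each other in both media, with a chi-square per gene of 5.04 for pEtn and 11.2 for RPMI against 51.1 to 107 for the other pairs of a medium. Nothing in the labels says that the libraries came from separate animals or cultures, so p-values measure the spread between libraries, which may be technical. Among T cell markers, Cd8a averaged 339 CPM with pEtn and 316 CPM in RPMI, and Cd3e 261 CPM with pEtn and 220.5 CPM in RPMI. Plcg2 and Prkcb are also genes of B cells and myeloid cells, and most markers of those cells, but not all, were under 1 CPM. The B cell genes Ms4a1 and Pax5 had no read, and Cd79a stayed at or under 0.293 CPM. The macrophage gene Adgre1 had no read, and Lyz2 stayed at or under 0.0975 CPM and Csf1r at or under 0.0600 CPM. The markers above that level, all of which were named after their values were seen, averaged 1.81 CPM with pEtn and 1.63 CPM in RPMI for Cd79b, a B cell receptor subunit, and 14.9 CPM with pEtn and 28.4 CPM in RPMI for Fcer1g, a signalling subunit of Fc receptors. Cd68, a macrophage lysosomal protein gene, averaged 6.96 CPM with pEtn and 4.15 CPM in RPMI, and Itgax, the gene of the integrin CD11c, 3.26 CPM with pEtn and 1.77 CPM in RPMI.

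Plcg1, Rasgrp1 and Pld2 RNA was higher in the pEtn cultures, by 1.48-, 1.50- and 1.76-fold. The other 6 genes tested did not pass the threshold in the test without the block. With the block Prkch was also higher, and Prkcb and Prkd2 were lower. The tenth gene, Pld1, was almost silent and was not tested. In bulk RNA, fewer cells of a type and less RNA per cell cannot be told apart.

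In the edgeR quasi-likelihood test, where a gene was called at a Benjamini-Hochberg adjusted p under 0.05 over all 11862 genes, 3 of the 9 members tested were called, 3 higher and 0 lower. Across all genes 12.8% were called, 5.22% higher and 7.56% lower. At an unadjusted p under 0.05 the members counted 3 higher and 0 lower. The share of all genes at an unadjusted p is not given, here or for the counts below. At an adjusted p under 0.05 DESeq2 also called 3 higher and 0 lower, against 17.6% of all genes that it tested. Other scalings, filters and limma on log2(TPM + 1) each called 3 members, against 7.56% to 15.7% of genes. With 1 library left out edgeR called 3 members, except for 2 without pEtn replicate 4, 1 without RPMI replicate 3 and 1 without RPMI replicate 4. The shares of all genes in those fits were 8.33%, 11%, 7.81% and 6.79% without pEtn replicates 1 to 4, and 13.7%, 12.2%, 6.61% and 7.15% without RPMI replicates 1 to 4. With the replicate block edgeR called 6 of the 9, 4 higher and 2 lower, against 32.3% of all genes, 15.8% higher and 16.5% lower. The libraries of the media did not overlap for 3 of the 9, against 20.4% of all genes. Each of these shares stands beside a background that is itself large, and with 9 genes the counts are a description of the members only.

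**Figure D1:**
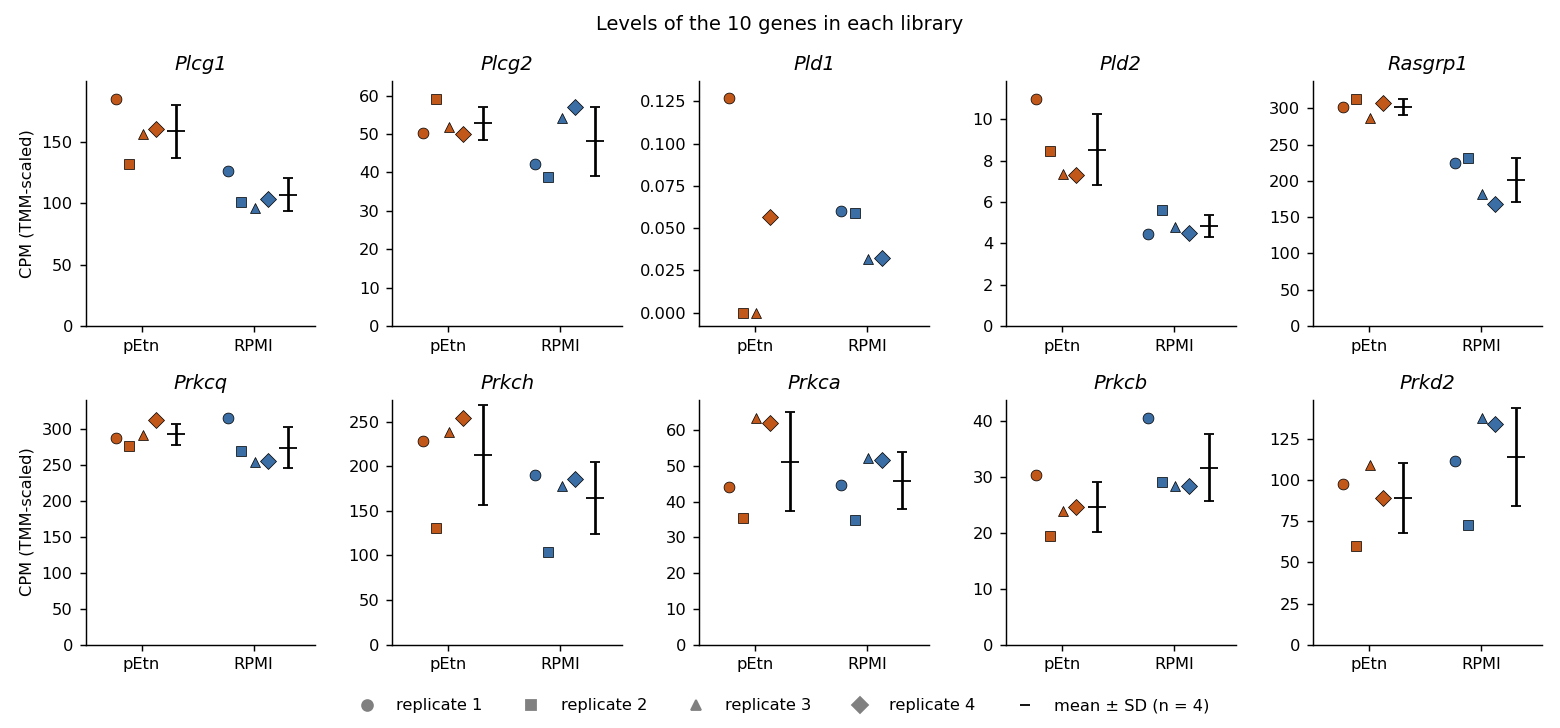
TMM-scaled CPM (vertical axes, linear) of the 10 genes in every library, pEtn left of RPMI, with marker shapes for the replicate number and black bars for the mean ± SD of 4 libraries (not drawn for Pld1, which had at most 4 reads in a library). The pEtn libraries of Plcg1, Pld2 and Rasgrp1 all lie above the RPMI libraries, while replicate 2 is the lowest of both media for Prkch, Prkca and Prkd2.

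Plcg1 (ENSMUSG00000016933) encodes the phospholipase C that the T cell receptor engages through the adaptors LAT and SLP-76. Its level was 185, 132, 157 and 161 CPM in pEtn replicates 1 to 4, against 127, 102, 96.2 and 104 CPM in RPMI replicates 1 to 4. Every pEtn library was above every RPMI library, although the lowest pEtn library, replicate 2, stood close to the highest RPMI library, replicate 1. The means were 159 ± 21.8 CPM with pEtn and 107 ± 13.5 CPM in RPMI (SD, n = 4 each), and the log2 fold change was 0.57 (SE 0.13, edgeR adjusted p = 0.0185, and 0.00131 with the block). The call was lost without pEtn replicate 4 (edgeR adjusted p = 0.0528), without RPMI replicate 3 (0.0629) or without RPMI replicate 4 (0.0561). Of its 7857 exon bases in GENCODE M21, 379 are shared with Zhx3 on the opposite strand, and whether the counting used strand is not stated. Zhx3 stood at 15.9 ± 1.35 CPM with pEtn and 12.5 ± 1.62 CPM in RPMI (SD, n = 4 each).

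Rasgrp1 (ENSMUSG00000027347) encodes the exchange factor that carries the diacylglycerol signal to Ras. It had 302, 313, 287 and 307 CPM in pEtn replicates 1 to 4, against 224, 231, 182 and 169 CPM in RPMI replicates 1 to 4. The pEtn libraries lay close together and clear of all RPMI libraries, in which replicates 3 and 4 were lower than replicates 1 and 2. The means were 302 ± 10.99 CPM with pEtn and 201 ± 30.7 CPM in RPMI (SD, n = 4 each), a log2 fold change of 0.59 (SE 0.11, edgeR adjusted p = 0.0102). In the 8 fits that left out 1 library each, its adjusted p ran from 0.00968 to 0.0376 and the call was kept in each.

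Pld2 (ENSMUSG00000020828) encodes a phospholipase D of the plasma membrane. Its level was low, at 10.98, 8.49, 7.36 and 7.31 CPM in pEtn replicates 1 to 4, against 4.44, 5.63, 4.80 and 4.52 CPM in RPMI replicates 1 to 4. The media did not overlap, and pEtn replicate 1 was the highest library. It averaged 8.53 ± 1.72 CPM with pEtn and 4.85 ± 0.544 CPM in RPMI (SD, n = 4 each), with a log2 fold change of 0.81 (SE 0.18, edgeR adjusted p = 0.0174). The call was lost without RPMI replicate 3 (edgeR adjusted p = 0.0527) or RPMI replicate 4 (0.0544).

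With replicates 3 and 4 of each medium summed into 1 library, Plcg1, Rasgrp1 and Pld2 all lost the call, at edgeR adjusted p of 0.126, 0.0797 and 0.0875. In that fit edgeR called 2.71% of all genes. With the same summing and the block, the adjusted p were 0.00844, 0.00999 and 0.0167, and edgeR called 19.4% of all genes.

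The start-site sequences of the 3 genes that rose are shown because these genes moved in the same direction, so that a reader can see what their promoters hold. They are RefSeq windows of build GRCm38.p6, from 250 bases before to 50 bases after an annotated start, written 5′ to 3′ on the strand of the gene. Capitals mark matches, on either strand, to the GC box (GGGCGG), the core of NFAT sites (GGAAA) and the CCAAT box (CCAAT). The motifs AP-1 (TGANTCA) and E-box (CACGTG) were searched as well and had no match in the 3 windows printed. The Plcg1 window is chr2:160731060-160731359 on the plus strand, the Rasgrp1 window is chr2:117342828-117343127 on the minus strand, and the Pld2 window is chr11:70540022-70540321 on the plus strand.
Plcg1: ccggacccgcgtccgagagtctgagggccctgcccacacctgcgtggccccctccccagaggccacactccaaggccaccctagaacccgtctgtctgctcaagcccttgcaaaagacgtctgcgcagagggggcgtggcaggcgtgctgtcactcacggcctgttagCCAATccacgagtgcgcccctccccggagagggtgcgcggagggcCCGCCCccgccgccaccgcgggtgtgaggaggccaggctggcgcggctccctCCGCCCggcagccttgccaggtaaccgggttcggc
Rasgrp1: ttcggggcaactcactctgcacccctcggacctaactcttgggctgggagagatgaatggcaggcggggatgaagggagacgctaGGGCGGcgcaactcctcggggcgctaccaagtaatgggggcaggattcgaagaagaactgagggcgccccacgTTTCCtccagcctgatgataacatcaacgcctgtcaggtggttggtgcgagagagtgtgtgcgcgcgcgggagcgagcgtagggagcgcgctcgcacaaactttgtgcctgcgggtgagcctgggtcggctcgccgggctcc
Pld2: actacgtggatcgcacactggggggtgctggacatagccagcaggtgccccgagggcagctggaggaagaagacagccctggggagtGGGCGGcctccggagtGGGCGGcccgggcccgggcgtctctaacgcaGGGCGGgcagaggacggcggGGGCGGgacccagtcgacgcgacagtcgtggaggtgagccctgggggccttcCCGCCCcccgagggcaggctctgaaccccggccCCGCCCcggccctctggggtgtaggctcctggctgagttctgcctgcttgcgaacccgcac
The Plcg1 window held 2 GC boxes and 1 CCAAT box, the Rasgrp1 window 1 GC box and 1 NFAT core, and the Pld2 window 6 GC boxes. A further Pld2 start, chr11:70539814-70540113, whose window overlaps the printed one, held 1 CCAAT box and no GC box. RefSeq windows matched 9 of the 10 members (not Prkch), 12 windows in all, and 10 of these (83.3%) held a GC box, against 35.7% of 32851 windows of all genes. The NFAT core was in 4 of the 12 windows (33.3%), against 61.3% of all windows, and the CCAAT box in 5 (41.7%), against 37.4%. The 2 Prkd2 windows overlap each other, so a CCAAT box and a GC box in their shared stretch count in both. By gene, the GC box was in 9 of 9 members, the NFAT core in 3 and the CCAAT box in 4, with no share by gene given for all genes. AP-1 matched 1 window, of Pld1, and the E-box 1 window, of Plcg2, against 7.81% and 7.15% of all windows. The GC share of the members' windows ran from 46.7% to 75.3%, where the median of all windows was 52.7%. A match is a run of letters and shows no binding.

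Among the remaining phospholipases, Plcg2 (ENSMUSG00000034330), the isoform best known from B cells and myeloid cells, had 50.3, 59.1, 51.8 and 49.9 CPM in pEtn replicates 1 to 4, against 42.3, 38.7, 54.3 and 56.9 CPM in RPMI replicates 1 to 4. The media overlapped, and the difference between same-numbered libraries was positive in numbers 1 and 2 and negative in numbers 3 and 4. The log2 fold change was 0.14 (SE 0.14, edgeR adjusted p = 0.567). Pld1 (ENSMUSG00000027695), the other classical phospholipase D, had 4, 0, 0 and 2 reads in pEtn replicates 1 to 4, against 2, 2, 1 and 1 reads in RPMI replicates 1 to 4, so 6 reads stood in each medium. A difference in Pld1 was not detectable at this depth.

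The balance within the phospholipase C pair was also examined as a ratio inside each library, which does not depend on library scaling. The log2 ratio of Plcg1 over Plcg2 TPM was 1.01, 0.29, 0.73 and 0.82 in pEtn replicates 1 to 4, against 0.71, 0.52, -0.05 and -0.00 in RPMI replicates 1 to 4. The media overlapped, since pEtn replicate 2 lay below RPMI replicates 1 and 2. The mean ratio was 0.71 ± 0.30 with pEtn and 0.30 ± 0.38 in RPMI (SD, n = 4 each; exact permutation test, two-sided, p = 0.143, and 0.357 adjusted over 5 ratios and shares). That Plcg1 passed the test and Plcg2 did not is therefore not shown to be a difference between the pair. Between same-numbered libraries the ratio was higher with pEtn in 3 of 4 numbers (exact paired permutation test, two-sided, p = 0.25). The Pld1 to Pld2 ratio was not computed because 2 libraries held no Pld1 read.

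The PKC genes made a set of abundant and scarce isoforms, and none of the 4 passed the edgeR test without the block. With the block Prkch was called higher and Prkcb lower. Prkcq, encoding PKC theta, the isoform that gathers at the T cell synapse, and Prkch, encoding PKC eta, dominated, while the conventional isoforms Prkca and Prkcb, whose proteins also need calcium, were low. The 4 genes together held 84.7% ± 2.39 of the TPM of all 9 PKC genes with pEtn and 83.2% ± 2.65 in RPMI (SD, n = 4 each).

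Prkcq (ENSMUSG00000026778) had 288, 276, 292 and 312 CPM in pEtn replicates 1 to 4, against 315, 269, 254 and 256 CPM in RPMI replicates 1 to 4. The highest value of all was that of RPMI replicate 1, and the media overlapped. The log2 fold change was 0.09 (SE 0.09, edgeR adjusted p = 0.560, and 0.405 with the block).

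Prkch (ENSMUSG00000021108) had 229, 131, 238 and 254 CPM in pEtn replicates 1 to 4, against 190.2, 104, 177 and 186 CPM in RPMI replicates 1 to 4. Replicate 2 was far below the others in both media, and within each number the pEtn library was the higher, by 0.27, 0.33, 0.42 and 0.45 on the log2 scale. The log2 fold change was 0.37, with an SE of 0.24 and an edgeR adjusted p of 0.342 without the block, and an SE of 0.07 and an adjusted p of 0.00528 with it.

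Prkca (ENSMUSG00000050965) had 44.1, 35.4, 63.5 and 62.0 CPM in pEtn replicates 1 to 4, against 44.7, 35.0, 52.2 and 51.6 CPM in RPMI replicates 1 to 4. Numbers 1 and 2 were nearly equal between the media, and numbers 3 and 4 were higher with pEtn. The edgeR adjusted p was 0.657 without the block and 0.239 with it, at a log2 fold change of 0.16 (SE 0.20).

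Prkcb (ENSMUSG00000052889) had 30.4, 19.3, 24.0 and 24.7 CPM in pEtn replicates 1 to 4, against 40.6, 29.1, 28.4 and 28.4 CPM in RPMI replicates 1 to 4. The media overlapped through pEtn replicate 1, and within each number the pEtn library was the lower, with log2 differences of -0.42, -0.59, -0.25 and -0.21. The log2 fold change was -0.36 (SE 0.17), with an edgeR adjusted p of 0.186 without the block and 0.0171 with it.

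**Figure D2:**
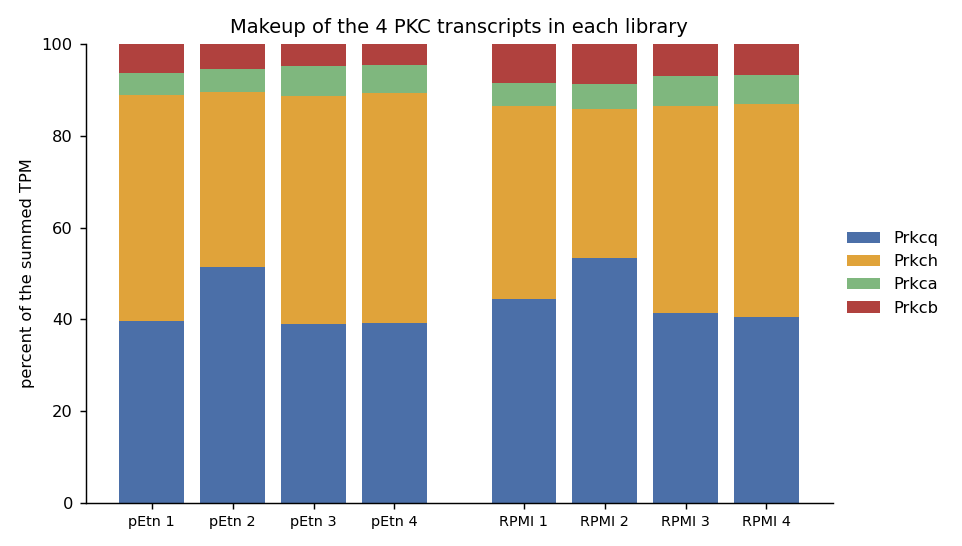
Percent of Prkcq, Prkch, Prkca and Prkcb (stacked, vertical axis) in their summed TPM in each library, pEtn left and RPMI right. The Prkcb share at the top is 4.62% to 6.24% in the pEtn libraries and 6.73% to 8.62% in the RPMI libraries, and replicate 2 of both media has the largest Prkcq share.

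As a share of the summed TPM of the 4 genes, Prkcb made 6.24, 5.37, 4.77 and 4.62% in pEtn replicates 1 to 4, against 8.54, 8.62, 6.89 and 6.73% in RPMI replicates 1 to 4. The media did not overlap. The mean share was 5.25% ± 0.738 with pEtn and 7.70% ± 1.02 in RPMI (SD, n = 4 each; exact permutation test, two-sided, p = 0.0286, the smallest that 4 against 4 libraries allow, and 0.143 adjusted over 5 ratios and shares). After that adjustment the Prkcb share did not pass the threshold. Prkch made 46.8% ± 5.83 with pEtn and 41.5% ± 6.27 in RPMI, Prkcq 42.3% ± 6.09 with pEtn and 45.0% ± 5.91 in RPMI, and Prkca 5.69% ± 0.861 with pEtn and 5.89% ± 0.810 in RPMI (SD, n = 4 each). Their exact permutation p ran from 0.286 to 0.657. Between libraries of the same number, however, each share differed in 1 direction in 4 of 4 numbers. The differences in percentage points, pEtn minus RPMI, were 7.33, 5.59, 4.53 and 3.79 for Prkch in numbers 1 to 4, and -4.86, -2.03, -2.39 and -1.36 for Prkcq. They were -2.29, -3.26, -2.12 and -2.12 for Prkcb and -0.175, -0.299, -0.0158 and -0.317 for Prkca. The 4 shares add up to the whole, so their directions are not independent. An exact paired permutation test, two-sided, gave p = 0.125 for each share, the smallest that 4 pairs allow, so pairs of this number cannot pass the threshold.

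Prkd2 (ENSMUSG00000041187) encodes the main protein kinase D of T cells, which PKC phosphorylates and activates. It had 98.1, 59.8, 109.6 and 89.4 CPM in pEtn replicates 1 to 4, against 112, 72.6, 138 and 134 CPM in RPMI replicates 1 to 4. Replicate 2 was the lowest library of each medium, and within each number the pEtn library was the lower, with log2 differences of -0.19, -0.28, -0.34 and -0.59. The log2 fold change was -0.36, with an SE of 0.23 and an edgeR adjusted p of 0.343 without the block, and an SE of 0.08 and an adjusted p of 0.0136 with it. With replicates 3 and 4 summed and the block, the adjusted p of Prkd2 was 0.0559, while Prkch and Prkcb remained called at 0.0344 and 0.0371.

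**Figure D3:**
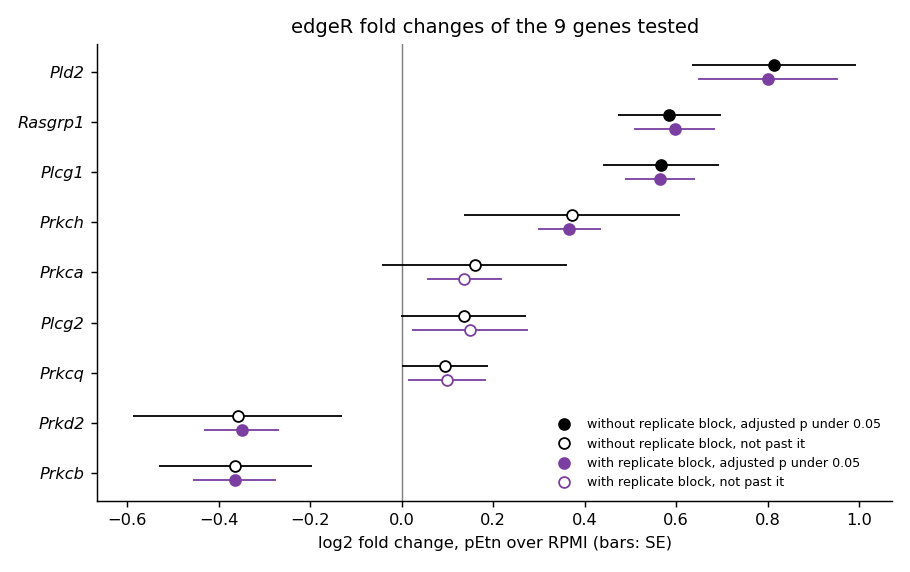
edgeR log2 fold changes, pEtn over RPMI (horizontal axis), of the 9 genes tested, with bars of 1 SE, without (black) and with (purple) the replicate block, filled where the adjusted p is under 0.05. Pld2, Rasgrp1 and Plcg1 are filled in both fits, and Prkch, Prkd2 and Prkcb only in the fit with the block.

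**Figure D4:**
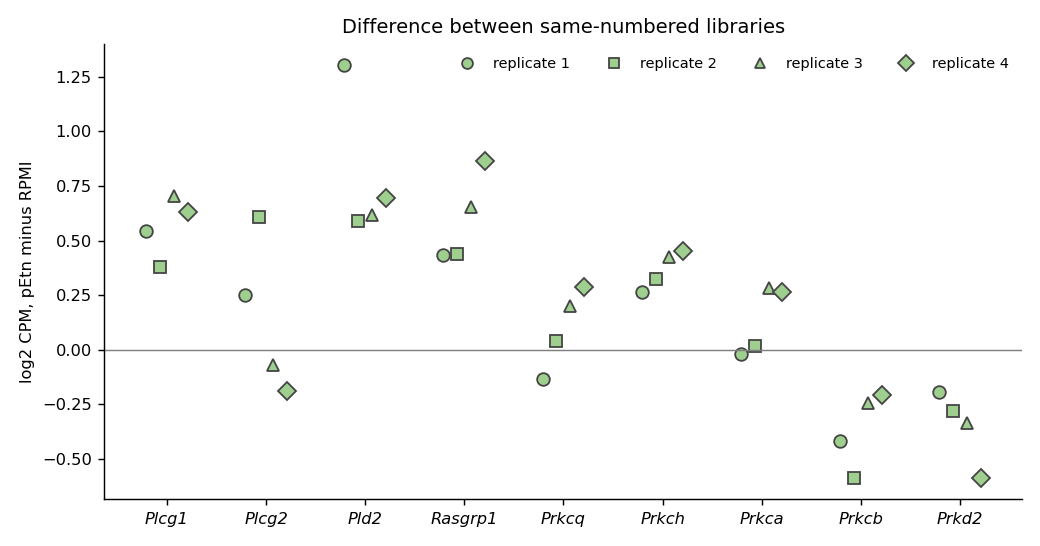
Difference in log2 CPM, pEtn minus RPMI (vertical axis), between libraries of the same replicate number for the 9 genes tested. Plcg1, Pld2, Rasgrp1 and Prkch are above 0 in 4 of 4 numbers and Prkcb and Prkd2 below 0 in 4 of 4, while Plcg2, Prkcq and Prkca lie on both sides.

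Nuclear RNAs, read here as a sign of RNA quality, differed between the media most in numbers 3 and 4. They were set beside the members for that reason. No direct measure of RNA quality was used. The nuclear RNA Malat1 stood at 7.03 and 6.73 CPM in RPMI replicates 3 and 4, against 17.2 to 25.6 CPM in the other libraries of both media. Its log2 difference between media was -0.12, -0.21, 1.39 and 1.36 in numbers 1 to 4, and that of Neat1, another nuclear RNA, was -0.01, 0.49, 1.07 and 1.23. With the block edgeR called Neat1 higher (adjusted p = 0.0427) and did not call Malat1 (adjusted p = 0.270). The difference of Rasgrp1 was 0.43, 0.44, 0.65 and 0.86 in the same numbers, that of Plcg1 0.55, 0.38, 0.71 and 0.63, and that of Pld2 1.31, 0.59, 0.62 and 0.69. Of 6 marker genes of CD4 and regulatory T cells, 1 of the 3 tested, Zbtb7b, rose by 0.68 on the log2 scale (edgeR adjusted p = 0.0262, lost in 5 of 8 fits with a library left out), and the summed level of the list was 52.7 to 69.1 CPM with pEtn and 26.6 to 55.1 CPM in RPMI. Cd4 stayed at or under 0.254 CPM with pEtn and 1.03 CPM in RPMI, and Foxp3 at or under 0.412 CPM with pEtn and 0.390 CPM in RPMI. The 8 myeloid markers summed to 12.2 to 44.4 CPM with pEtn and 27.2 to 45.9 CPM in RPMI, and the 7 B cell markers to 0.833 to 3.14 CPM with pEtn and 0.850 to 2.82 CPM in RPMI. Of these, 5 of the 8 myeloid and 6 of the 7 B cell markers were under 1 CPM in every library. The 3 myeloid markers tested were not called without the block. With it, in 4 of 4 numbers each, Cd68 was higher at a log2 fold change of 0.76 (edgeR adjusted p = 0.0115), Itgax was higher at 0.84 (0.0111) and Fcer1g was lower at -1.15 (0.0243). The part of RNA quality and of these other markers in the members' differences was not tested.

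Compared per length, Rasgrp1 was the most abundant of the 10 with pEtn and stood below Prkcq and Prkch in RPMI. With pEtn the mean TPM was 142 ± 6.08 for Rasgrp1, 124 ± 33.3 for Prkch and 108 ± 6.53 for Prkcq, and the libraries of neighbours in this order overlapped. Prkd2 followed at 62.3 ± 14.9 and Plcg1 at 53.1 ± 7.97 TPM, overlapping each other, then Plcg2 at 32.2 ± 2.28 TPM, which overlapped neither neighbour. Prkca at 15.0 ± 4.01 and Prkcb at 13.6 ± 2.69 TPM overlapped, and Pld2 stood at 3.59 ± 0.761 TPM (SD, n = 4 throughout). In RPMI the order was Prkcq at 101 ± 12.5, Prkch at 94.9 ± 23.6, Rasgrp1 at 94.0 ± 15.6 and Prkd2 at 79.3 ± 20.3 TPM, each overlapping the next. Plcg1 at 35.6 ± 5.12 and Plcg2 at 29.1 ± 5.00 TPM overlapped in RPMI but not with pEtn. Prkcb at 17.4 ± 3.63 TPM stood above Prkca at 13.3 ± 2.23 TPM in RPMI, and Pld2 stood at 2.02 ± 0.226 TPM (SD, n = 4 throughout). Prkcb and Prkca overlapped with pEtn and narrowly did not in RPMI. There the lowest Prkcb library was at 15.3 TPM and the highest Prkca library at 15.05 TPM. A difference between the media in this order was not tested. Among the 11862 genes tested, the mean TPM of Rasgrp1, Prkch and Prkcq was above that of 88.6%, 87.7% and 87.0% of genes, and that of Pld2 above 19.2%.

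The surrounding pathway was described with 102 further genes in 9 lists, of which 86 could be tested. edgeR called 13 of them (15.1%, against 12.8% of all genes), 6 higher and 7 lower, and 32 with the block (37.2%, against 32.3%), 19 higher and 13 lower, so the share called was near that of all genes. The 6 higher calls became 0 without pEtn replicate 1, pEtn replicate 4, RPMI replicate 3 or RPMI replicate 4, and 1 without pEtn replicate 3, while 5 to 7 lower calls were made in those fits. With replicates 3 and 4 summed and no block, 0 were higher and 4 lower. The calls over all genes shifted in the same direction. Without the block edgeR called 619 of all genes higher and 897 lower. In the fits named above with a library left out, it called 250 to 350 higher and 542 to 647 lower. With the summing and no block it called 79 higher and 246 lower, so this shift is not particular to the lists. The median log2 fold change of the 86 genes was 0.05, against 0.02 over all genes tested.

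Upstream of phospholipase C gamma, 2 of 12 genes tested fell, and the median was -0.05. Zap70, which phosphorylates the adaptor LAT, was lower at -0.34 (edgeR adjusted p = 0.0347) and lost the call in 5 of 8 fits with a library left out.

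Of the enzymes that make or remove the lipid, 0 of 8 other phospholipase C genes tested were called by edgeR or DESeq2, with 3 at an unadjusted p under 0.05 and 5 called with the block. Of 6 diacylglycerol kinase genes tested, whose products end the signal by turning diacylglycerol into phosphatidic acid, 2 fell. Dgkd averaged 74.4 ± 15.5 CPM with pEtn and 166 ± 28.2 CPM in RPMI (SD, n = 4 each), a log2 fold change of -1.15 (SE 0.17, edgeR adjusted p = 0.00345), and Dgkh fell by 0.75 on the log2 scale (adjusted p = 0.0182, and 0.0592 without pEtn replicate 4). With replicates 3 and 4 summed and no block, Dgkd kept the call (edgeR adjusted p = 0.0255) and Dgkh lost it (0.0795). Dgka and Dgkz, the kinase genes best known in T cells and named here after their values were seen, had edgeR adjusted p of 0.565 and 0.827. Of 8 other phospholipase D and phosphatidate phosphatase genes tested, 1 rose, Lpin2 at 0.49 (edgeR adjusted p = 0.0413), and it lost the call in 6 of 8 fits with a library left out.

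Among the other sensors, 1 of 8 further PKC, PKD and PKC-related genes rose. Of 6 other RasGRP and C1 domain genes tested, 1 fell, Chn2, which encodes a diacylglycerol-binding inactivator of Rac. Its level was low. Chn2 had 0.368 ± 0.236 CPM with pEtn and 2.21 ± 0.548 CPM in RPMI (SD, n = 4 each), a log2 fold change of -2.56 (SE 0.45, edgeR adjusted p = 0.00697).

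Downstream, the NF-kappaB and the Ras arms held calls in both directions, and the calcium arm only higher ones. In the arm that PKC theta drives towards NF-kappaB, 1 of 8 genes rose and 1 fell. Malt1, a protease of that arm, averaged 96.8 ± 17.1 CPM with pEtn and 183 ± 27.7 CPM in RPMI (SD, n = 4 each). Its log2 fold change was -0.91 (edgeR adjusted p = 0.00533), and the call was lost in 0 of 8 fits with a library left out. In the Ras and ERK arm 1 of 15 genes rose, the kinase gene Mapk3 at 0.51 (edgeR adjusted p = 0.0292, lost in 5 of 8 fits). Rasa2, which inactivates Ras, was the 1 that fell, at -0.86 (edgeR adjusted p = 0.0105, lost in 0 of 8 fits). With replicates 3 and 4 summed and no block, Rasa2 lost the call (edgeR adjusted p = 0.0858) and Malt1 kept it (0.0243). In the inositol trisphosphate and calcium arm 2 of 15 rose, the calcineurin subunit gene Ppp3cc at 0.28 and Itpka, an inositol trisphosphate kinase gene, at 1.34 (edgeR adjusted p = 0.0387 and 0.0318, lost in 7 and 6 of 8 fits). With no filter the edgeR adjusted p were 0.0974 for Ppp3cc and 0.0716 for Itpka. The level of Itpka was low, at 0.648 ± 0.151 CPM with pEtn and 0.253 ± 0.0644 CPM in RPMI (SD, n = 4 each). In that arm 0 of 15 fell by edgeR or DESeq2, also at an unadjusted p under 0.05. With the block 6 rose and 0 fell, where 15.8% of all genes were called higher and 16.5% lower. With replicates 3 and 4 summed and no block, edgeR called 0 of them in either direction, against 2.71% of all genes. With 15 genes these counts are a description of the arm only.

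**Figure D5:**
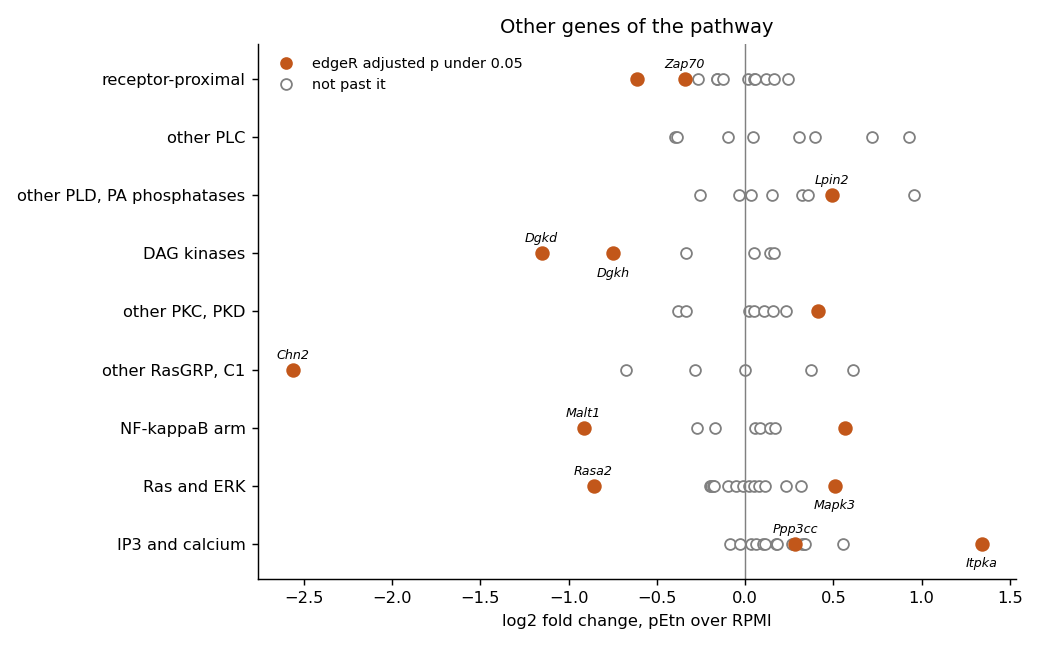
edgeR log2 fold changes, pEtn over RPMI (horizontal axis), of the 86 tested genes in 9 lists around the 10 members (rows), filled where the adjusted p is under 0.05, with 10 of the filled points named. The 13 filled points lie on both sides of 0, 6 above and 7 below. Chn2 at -2.56 and Itpka at 1.34, both of low level, are the farthest among them.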

How the data were processed

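RNA was sequenced from 8 libraries, 4 per medium, after sorting into lysis buffer and SmartSeq cDNA synthesis, per the labels' protocols. The deposited table gives total counts, RPKM and TPM made by the authors for 45232 genes. A further column that the authors name CPM sums to no fixed total, was treated as a signal deposited by the authors and was not used. Per the submitters' processing notes, reads were placed on GRCm39. Which aligner, counter and annotation were used, and whether strand was, is not given in the sources used here.

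The deposited counts went into edgeR 4.0.16 (R 4.3.3): filterByExpr (11862 genes kept of 17625 with any count), TMM, robust quasi-likelihood F test, Benjamini-Hochberg adjustment over all genes tested. SE was derived from the F statistic. Ratios and shares used deposited TPM and exact permutation tests (scipy 1.17.1). Alternatives were DESeq2 1.42.0, limma 3.58.1 on log2(TPM + 1), other scalings and filters, the replicate block, summed replicates 3 and 4, and each library left out. Replicate numbers are shared between media in the labels, without a stated meaning. Every same-numbered pair correlated above 0.1 in its deviations, so the numbers were taken as pairs in alternative tests. The edgeR test as reported has no block, and the first permutation test of each ratio or share is unpaired. Pairs across numbers 3 and 4 (0.382 and 0.406) and pEtn replicate 1 with RPMI replicate 2 (0.153) also passed 0.1. The ratios and shares form a family of 5, not the 6 planned, since Pld1 had no read in 2 libraries.

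All 10 members are named. Of each pathway list, members past the threshold are named, up to the 4 with the smallest p, and a fixed set of markers whatever their values. Some genes chosen this way are left out of the text. Ms4a1, Pax5, Adgre1, Cd79b, Fcer1g, Cd68, Itgax, Zbtb7b, Malat1, Neat1, Zhx3, Dgka and Dgkz were named after their values were seen. The members and lists were chosen with earlier results of these data known. Fits were tested on simulated data drawn independently for each library. Those data held no replicate effect and no likeness of replicates 3 and 4. That test therefore cannot show how the fits behave with these features. Exon overlaps come from GENCODE M21 (GRCm38). Intervals are not given, and the SE and p-values rest on the spread between libraries. Amplified reads without molecular identifiers are not independent observations.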

Additional observations from a re-analysis of the deposited data

Results flagged for a closer look

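For each medium, 9 genes and 5 ratios or shares were examined for a library far from the others, 28 groups of 4 libraries in all. In 4 groups a library stood out, with a gap to the nearest library of 0.851 to 0.947 of the range. Chance would flag about 1 in 20 of independent groups. These groups share genes and libraries, so the number flagged cannot be set against that rate. Prkch in RPMI replicate 2 was at 104 CPM, against 177 to 190.2 CPM in the other RPMI libraries. Prkcb in RPMI replicate 1 was at 40.6 CPM, against 28.4 to 29.1 CPM in the other RPMI libraries. In pEtn replicate 2 the Prkch share of the 4 PKC genes was 38.0%, against 49.3% to 50.05% in the other pEtn libraries, and the Prkcq share was 51.4%, against 38.9% to 39.6%. The shares of Prkch and Prkcq come from the same sum and are not separate observations.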

How the results depend on the processing

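The number of members called, 3 in the test as reported, stayed at 3 under other scalings (RLE and library totals), other filters, DESeq2 and limma. It was 6 with the replicate block, 5 with the block and replicates 3 and 4 summed, 0 by edgeR with replicates 3 and 4 summed and no block (3 at an unadjusted p under 0.05), and 1 to 3 with a library left out, with 1 without RPMI replicate 3 or RPMI replicate 4. Over all genes the 1516 calls became 3830 with the block, 325 with replicates 3 and 4 summed, 2329 with both, and 796 to 1638 with a library left out. The 13 calls among the pathway genes became 32 with the block, 4 with replicates 3 and 4 summed, and 5 to 14 with a library left out. Summing leaves 3 libraries a medium, and leaving out a library without a block breaks a pair. Of 153 recomputed fold changes of the 9 members tested, 0 changed sign, 8 lost a call and 5 gained one. The block changed no call among the members other than Prkch, Prkcb and Prkd2. The Plcg1 to Plcg2 ratio and the 4 PKC shares were tested in designs that say little about stability: the smallest p is 0.1 with replicates 3 and 4 averaged, 0.0571 with a library left out and 0.125 as pairs, an alternative chosen after seeing the data, and at 4 against 4 a lone measure at the smallest p adjusts to 0.143. The paired differences equal those reported (0.41 for the log2 ratio). In 3 cases a share difference, pEtn minus RPMI, turned positive: Prkca, -0.202 percentage points as reported, was 0.0997 without pEtn replicate 1 and 0.0617 without RPMI replicate 3, and Prkcq, -2.66 as reported, was 0.172 without RPMI replicate 2. With a library left out they ran from -0.527 to 0.0997 for Prkca and from -5.70 to 0.172 for Prkcq.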
